A study of Homo sapiens with 6 samples.

Results

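Transcripts of the calcium release unit and the dyad were examined in cardiomyocytes that had been differentiated from WTC11, a widely used human iPSC (induced pluripotent stem cell) line. The 10 genes were chosen by name, with earlier results of these data known. They include the ryanodine receptors RYR2 and RYR3, the calsequestrins CASQ1 and CASQ2, triadin (TRDN) and the junctin gene ASPH. The others are the junctophilins JPH1 and JPH2 and the T-tubule genes BIN1 and CAV3. All 10 were among the 38557 genes listed in the count files, and all 10 passed the filter on low counts that left 16107 genes. The cells, labelled WT, were kept in 1 of 2 backbone media, RPMI plus B27 or DMEM plus fatty acids. For each medium there were biological replicates 1, 2 and 3, or 6 bulk RNA sequencing libraries in all, and the comparison asks how transcript levels differ between these media. The composition of the media, the time spent in them and the age of the cultures were not given in the sources used here, and a single iPSC line was used.

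In heart muscle, an action potential opens L-type calcium channels in the T-tubule membrane, and the calcium that enters opens ryanodine receptors in the facing membrane of the sarcoplasmic reticulum. This pairing of membranes is the dyad. Junctophilins hold the membranes together, calsequestrin stores calcium inside the reticulum, and triadin and junctin link calsequestrin to the release channel. Cardiomyocytes made from pluripotent stem cells are known for sparse T-tubules and an immature release system.

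Library totals ran from 23232324 to 31035389 gene counts, and the 10 genes took 0.104% to 0.151% of them. The cardiomyocyte label was checked first. TNNT2, cardiac troponin T, stood at 3001 to 4216 CPM (counts scaled to library size, here with TMM, a normalization that sets aside the genes that differ most between libraries), and all 12 cardiomyocyte markers were tested. Their summed level was 40766 to 47808 CPM in RPMI plus B27 and 27704 to 43381 CPM in DMEM plus fatty acids, with the lowest value in replicate 3 of the latter. Markers of other cells also differed between media. The 12 fibroblast and stromal markers summed to 4352 to 8489 CPM in RPMI plus B27 and 761 to 1962 CPM in DMEM plus fatty acids, and 8 smooth muscle markers to 1869 to 2499 and 494 to 1348 CPM. Of 12 skeletal muscle markers, MYOD1, MYF5 and PAX7 had no count in any library. The 6 endothelial markers summed to 30.1 to 239.8 CPM in RPMI plus B27 and 115 to 464 CPM in DMEM plus fatty acids. Nearly all of that was KDR, which was higher in DMEM plus fatty acids with the block (adjusted p 0.0245), while PECAM1 was at 0.213 CPM or less. Of these 6 markers 3 were tested. The 2 besides KDR were lower in DMEM plus fatty acids, though neither passed with or without the block. The 6 epicardial markers summed to 1076 to 1486 CPM and 541 to 663 CPM. In bulk RNA, fewer cells of a type and less RNA per cell cannot be told apart. The part of these markers in the differences below was not tested.

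Promoter windows of 8 of the 10 genes were matched in RefSeq (GRCh38.p14), each running from 250 bases before to 50 bases after the annotated start of the gene. No window was matched for ASPH and JPH1, which were also lower in DMEM plus fatty acids, so no motif was sought there. The windows of CASQ2 and CAV3, the genes with the lowest fitted fold changes of the set, and of RYR2, whose level was alike on average in both media, are shown because they differ in base composition and motif content. Capitals mark matches on either strand to the MEF2 consensus, a motif of muscle gene control, and to the E-box CANNTG, the motif of basic helix-loop-helix factors. No match overlaps another in these windows.
CASQ2 (chr1:115768665-115768964, minus strand): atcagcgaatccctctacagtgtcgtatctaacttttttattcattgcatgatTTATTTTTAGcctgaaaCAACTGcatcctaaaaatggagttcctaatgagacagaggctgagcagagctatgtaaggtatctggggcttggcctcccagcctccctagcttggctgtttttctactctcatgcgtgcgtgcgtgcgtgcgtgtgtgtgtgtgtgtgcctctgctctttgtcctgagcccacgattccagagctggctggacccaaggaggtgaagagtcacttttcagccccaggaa
CAV3 (chr3:8733552-8733851, plus strand): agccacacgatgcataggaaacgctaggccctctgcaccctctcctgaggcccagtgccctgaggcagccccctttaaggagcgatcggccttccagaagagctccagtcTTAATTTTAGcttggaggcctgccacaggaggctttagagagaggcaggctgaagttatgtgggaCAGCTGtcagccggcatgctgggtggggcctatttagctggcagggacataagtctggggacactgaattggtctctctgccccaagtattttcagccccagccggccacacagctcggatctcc
RYR2 (chr1:237041934-237042233, plus strand): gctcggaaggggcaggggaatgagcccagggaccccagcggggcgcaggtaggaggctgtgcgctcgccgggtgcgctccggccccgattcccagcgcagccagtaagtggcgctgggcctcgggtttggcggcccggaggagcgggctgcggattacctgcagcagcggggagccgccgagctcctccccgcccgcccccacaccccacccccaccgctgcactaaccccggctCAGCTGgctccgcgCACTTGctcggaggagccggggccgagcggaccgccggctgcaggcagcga
The MEF2 consensus was found in the windows of CASQ2, from 197 bases before the start, and of CAV3, from 140 bases before it, and in none of the other 6. It was present in 2.99% of all 35116 windows of this length. An E-box was found in 7 of the 8 windows, all but that of JPH2, and in 68.7% of all windows. The RYR2 window was 75.3% G and C with 32 CpG dinucleotides, against 49.3% and 8 for CASQ2 and 58.0% and 7 for CAV3. The median window was 58.7% G and C with 14 CpG. Which start sites these cells used was not measured, and a match is a string of letters, not a bound site. Whether these motifs bear on the differences between media was not tested.

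The media were compared with edgeR's quasi-likelihood test, with p values adjusted over all tested genes and a threshold of 0.05. None of the 10 genes passed, where 1.36% of all tested genes did (1.07% lower and 0.292% higher in DMEM plus fatty acids). At an unadjusted p under 0.05 there were 5 (CASQ2, ASPH, JPH1, JPH2 and CAV3), each lower in DMEM plus fatty acids, where 17.7% of all genes stood under that value and 9.98% did so in that direction. Libraries with the same replicate number were taken as pairs on the basis of these same data, as described under processing. When the replicate entered the fit as a block, CASQ2 and JPH1 passed, both lower in DMEM plus fatty acids, as did 4.78% of all genes (3.42% lower and 1.36% higher). The DESeq2 Wald test called ASPH and CAV3, also lower, and 7.53% of all genes (5.13% lower and 2.4% higher). In blocked fits that left out replicate 1, 2 or 3 of RPMI plus B27, 5, 2 and 2 of the 10 genes passed, against 12%, 2.5% and 6.16% of all genes. Of the 5, BIN1 was higher and CASQ2, JPH1, JPH2 and CAV3 were lower in DMEM plus fatty acids. Without replicate 1, 2 or 3 of DMEM plus fatty acids these were 3, 2 and 2, against 9.74%, 2.54% and 6.2%. Fold changes are given as DMEM plus fatty acids relative to RPMI plus B27. On the log2 scale their median was -0.51 for the 10 genes and 0.01 for all tested genes, and 7 of the 10 were under 0, as were 49% of all genes. For 4 genes (ASPH, JPH1, JPH2 and CAV3) the 3 libraries of each medium did not overlap, all lower in DMEM plus fatty acids, as for 25.6% of all genes tested (12.8% lower). Within replicate numbers, 6 of the 10 were lower in DMEM plus fatty acids in all 3 pairs, the 4 above and both calsequestrins, as were 24% of all genes.

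**Figure D1:**
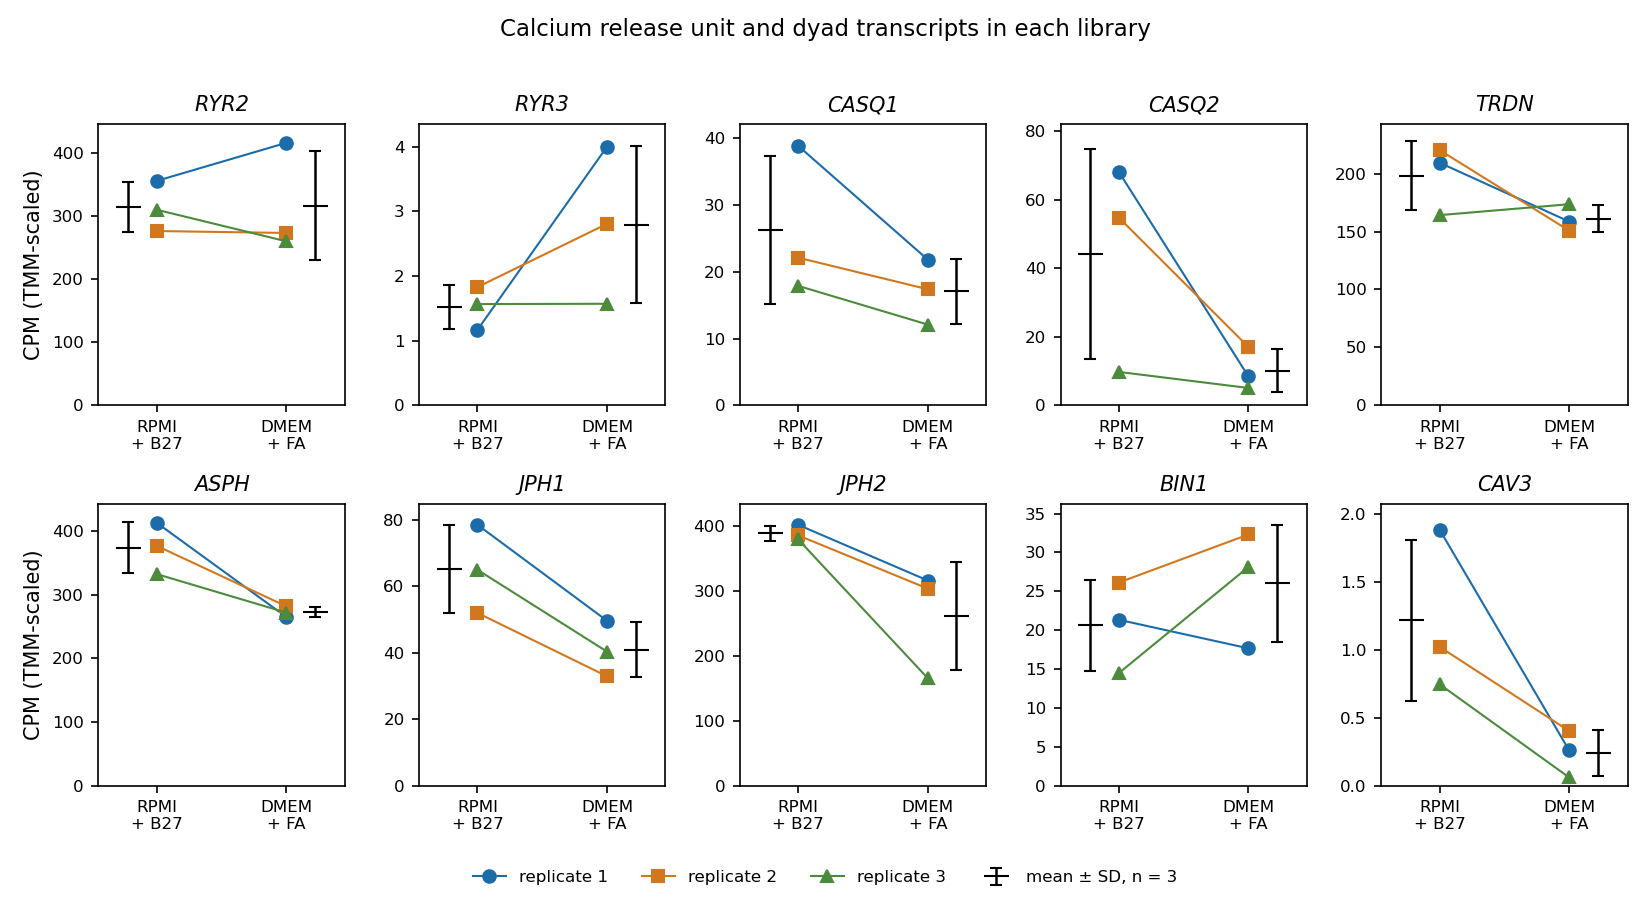
TMM-scaled CPM (vertical axes from 0, 1 scale per gene) of the 10 transcripts in either medium (FA, fatty acids). Points are libraries, lines join libraries with the same replicate number, and black bars are mean ± SD of 3 libraries. All lines slope down for CASQ1, CASQ2, ASPH, JPH1, JPH2 and CAV3, and CASQ2 is low in both libraries of replicate 3.

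RYR2, the cardiac release channel, lies on chromosome 1 (237042205 to 237833988, plus strand, GENCODE 29 on GRCh38). Its level was 356, 277 and 311 CPM in replicates 1 to 3 of RPMI plus B27 and 417, 274 and 260.4 CPM in DMEM plus fatty acids. The media overlapped, and the highest library of each was replicate 1. The log2 fold change was 0.01 ± 0.21 (SE, adjusted p 0.984), with a 95% interval of -0.47 to 0.50, so changes within that interval could not be told from none. Its sign turned with the setting, from -0.24 without replicate 1 of DMEM plus fatty acids to 0.14 without replicate 3.

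RYR3, a release channel known mainly from brain and smooth muscle, was near the lower end of detection, with 31, 43 and 42 counts in RPMI plus B27 and 93, 84 and 53 in DMEM plus fatty acids. In CPM this was 1.17, 1.83 and 1.57 against 4.00, 2.81 and 1.57. The difference was large in replicate 1 and absent in replicate 3 (log2 fold change 0.87 ± 0.40, adjusted p 0.312, and 0.52 without replicate 1 of DMEM plus fatty acids).

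The third receptor, RYR1, is the release channel of skeletal muscle and is not among the 10 genes. It had 4.07, 0.808 and 1.60 CPM in RPMI plus B27 and 9.26, 6.69 and 17.1 CPM in DMEM plus fatty acids. Every library in DMEM plus fatty acids was above every library in RPMI plus B27. The log2 fold change was 2.34 ± 0.61 (adjusted p 0.116). RYR1 passed in 3 of 12 alternatives, the block (adjusted p 0.0426), DESeq2 (0.00178) and no filter on low counts (0.0371), and the highest adjusted p over the 12 was 0.221. The blocked call was lost without replicate 2 (adjusted p 0.0558) or replicate 3 (0.0541) of DMEM plus fatty acids. The skeletal muscle markers, whose part was not tested, summed to 8.87 to 23.0 CPM in RPMI plus B27 and 5.93 to 11.9 CPM in DMEM plus fatty acids.

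RYR2 held nearly all ryanodine receptor counts in each library, but a smaller share in DMEM plus fatty acids. The share was 98.6%, 99.1% and 99.0% in RPMI plus B27 and 96.9%, 96.6% and 93.3% in DMEM plus fatty acids, with no overlap. The difference of the means was -3.24 percentage points (exact two-sided permutation p 0.1, the smallest that 3 against 3 libraries can give, and 0.2 adjusted over the 4 family shares tested). Without replicate 3 of DMEM plus fatty acids, the library with the lowest share, it was -2.08 percentage points. Counting error was small beside it, since the 95% Wilson interval of the lowest share was 92.8% to 93.8%. Of RYR2 and RYR3 counts alone, RYR2 held 99.0% to 99.7% in each library.

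CASQ2, the cardiac calsequestrin, lies on chromosome 1 (115700007 to 115768781, minus strand). Apart from the sparse CAV3 it varied most of the 10 genes, with a 13.5-fold range over the 6 libraries, while RYR2 spanned 1.60-fold. The levels were 68.1, 54.8 and 9.73 CPM in RPMI plus B27 and 8.40, 17.0 and 5.04 CPM in DMEM plus fatty acids. Replicate 3 was the lowest library in both media, and its RPMI plus B27 culture lay below replicate 2 of DMEM plus fatty acids, so the media overlapped. Within each replicate number CASQ2 was lower in DMEM plus fatty acids, by 8.11-fold, 3.22-fold and 1.93-fold for replicates 1, 2 and 3.

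Without the block the log2 fold change of CASQ2 was -2.12 ± 0.72 (adjusted p 0.191). In the blocked fit it was -1.90 ± 0.38 (adjusted p 0.0492). The call was kept in each of the 6 blocked fits that left out 1 library (log2 fold change -2.33 to -1.36). With a library left out, its partner carries no information on the medium, so either library of a replicate gives nearly the same fit. Each of these fits has 1 residual degree of freedom. The smaller fall was found when either library of replicate 1 was left out.

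CASQ1, the calsequestrin of fast skeletal muscle, lies on chromosome 1 (160190556 to 160201886, plus strand). It was present at 38.9, 22.1 and 17.9 CPM in RPMI plus B27 and 21.8, 17.4 and 12.1 CPM in DMEM plus fatty acids. In each medium it was highest in replicate 1 and lowest in replicate 3, and the media overlapped. It was lower in DMEM plus fatty acids in all 3 pairs but passed neither fit (log2 fold change -0.62 ± 0.33, adjusted p 0.379, and 0.0810 with the block). The fold change was -0.23 without replicate 1 of RPMI plus B27, and between -0.84 and -0.42 without any other library. Of the calsequestrin counts, CASQ2 held 63.6%, 71.2% and 35.2% in RPMI plus B27 and 27.8%, 49.4% and 29.4% in DMEM plus fatty acids. CASQ1 thus outnumbered CASQ2 in counts in all 3 DMEM plus fatty acids libraries and in replicate 3 of RPMI plus B27. The difference in share was -21.2 percentage points, and the media overlapped (exact two-sided permutation p 0.2, adjusted 0.267). That test cannot go under 0.1 with these libraries and does not use the pairs, so it decides little. The difference was negative in all 3 pairs, at -35.9, -21.8 and -5.81 percentage points for replicates 1, 2 and 3. Without replicate 2 of RPMI plus B27 the difference was -13.9, and without replicate 3 it was -31.9.

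TRDN, triadin, anchors calsequestrin to the release channel and stood at 209, 220.4 and 164 CPM in RPMI plus B27 and 159, 151 and 174 CPM in DMEM plus fatty acids. Replicate 3 went the other way from replicates 1 and 2, and the log2 fold change was -0.30 ± 0.14 (adjusted p 0.332).

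ASPH encodes junctin, the partner of triadin, and also junctate and the enzyme aspartate beta-hydroxylase, which many cell types make. A count per gene cannot separate these products. Its levels were 413, 377 and 332 CPM in RPMI plus B27 and 265, 282 and 272 CPM in DMEM plus fatty acids, a spread of 8.40 CPM (SD) in the latter against 40.3 CPM in the former. The media did not overlap. The log2 fold change was -0.46 ± 0.13 (adjusted p 0.130, 0.0968 with the block and 0.0199 by DESeq2, 0.0199 to 0.306 over 12 alternatives).

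**Figure D2:**
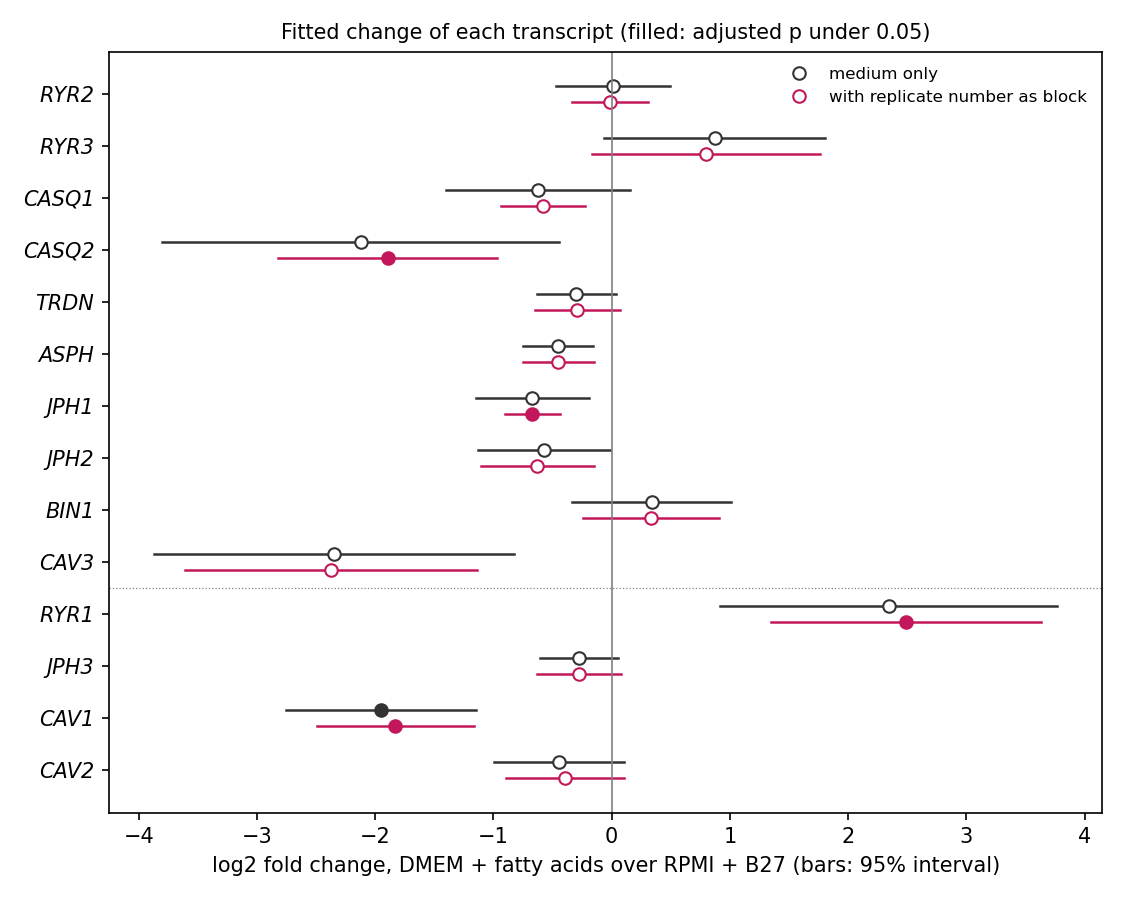
Fitted log2 fold changes (horizontal axis, DMEM plus fatty acids relative to RPMI plus B27) with 95% intervals for the 10 genes and, below the dotted line, 4 relatives. Black is the fit on medium alone and pink the blocked fit, and filled points have an adjusted p under 0.05. Among the 10 genes CASQ2 and JPH1 are filled, in the blocked fit only.

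JPH2, the cardiac junctophilin, lies on chromosome 20 (44111695 to 44187578, minus strand). In RPMI plus B27 it was at 402, 386 and 379.8 CPM, with an SD of 11.6 CPM. In DMEM plus fatty acids it was at 316, 304 and 166 CPM. All 3 libraries lay below those of RPMI plus B27, and replicate 3 stood well under the other 2. The log2 fold change was -0.57 ± 0.24 (adjusted p 0.272, and 0.129 with the block), and it was -0.32 without replicate 3 of DMEM plus fatty acids.

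JPH1, the junctophilin first known from skeletal muscle, was at 78.6, 52.0 and 65.0 CPM in RPMI plus B27 and 49.6, 32.9 and 40.3 CPM in DMEM plus fatty acids. The order of the replicates was the same in both media, and the ratio was nearly constant at 1.58-fold, 1.58-fold and 1.61-fold lower in replicates 1, 2 and 3. The log2 fold change was -0.67 ± 0.20 (adjusted p 0.160) without the block and -0.67 ± 0.10 (adjusted p 0.0245) with it. The blocked call was lost without either library of replicate 2 (adjusted p 0.131 without that of RPMI plus B27 and 0.134 without that of DMEM plus fatty acids).

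Of the other junctophilins, JPH3, known from neurons, was at 35.7 to 43.3 CPM and 28.2 to 34.3 CPM (log2 fold change -0.28 ± 0.14, adjusted p 0.356), and JPH4 had 22 counts or fewer in each library and was not tested. JPH2 held 76.6%, 81.5% and 79.0% of junctophilin counts in RPMI plus B27 and 80.2%, 81.9% and 69.5% in DMEM plus fatty acids (exact two-sided permutation p 0.9). The family kept JPH2 as its main member in each library.

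BIN1 encodes amphiphysin 2, a membrane-bending protein that shapes T-tubules, and is also made outside muscle. It was at 21.3, 26.1 and 14.5 CPM in RPMI plus B27 and 17.7, 32.3 and 28.1 CPM in DMEM plus fatty acids. Replicate 1 was lower and replicates 2 and 3 were higher in DMEM plus fatty acids, and the log2 fold change was 0.34 ± 0.29 (adjusted p 0.584). It ran from 0.14 to 0.55 in unblocked fits lacking a library, lowest without replicate 3 of RPMI plus B27. In the blocked fit without replicate 1 of RPMI plus B27 BIN1 passed as higher (0.63, adjusted p 0.0249).

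CAV3, muscle caveolin, lies on chromosome 3 (8733800 to 8841808, plus strand) and was the least abundant of the 10 genes in raw counts. It had 50, 24 and 20 counts in RPMI plus B27 and 6, 12 and 2 in DMEM plus fatty acids, or 1.22 ± 0.594 and 0.240 ± 0.172 CPM (SD, n = 3 each). The media did not overlap. The log2 fold change was -2.35 ± 0.65 (adjusted p 0.132), the adjusted p was 0.0568 with the block, and DESeq2 called it at 0.0351 (0.0351 to 0.272 over the 11 alternatives in which it was tested). With at most 50 counts a library, its size is known only roughly (95% interval -3.87 to -0.83). CAV3 passed the filter on low counts only through the RPMI plus B27 libraries, where it was higher. Its place in the counts of genes above rests on that.

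The broadly expressed caveolins CAV1 and CAV2 were far more abundant than CAV3. CAV1 was at 37.6 ± 19.0 CPM in RPMI plus B27 and fell to 9.71 ± 0.528 CPM (SD, n = 3 each). Its log2 fold change was -1.95 ± 0.34 with an adjusted p of 0.0486 (0.0255 when blocked), a call kept in 1 of 6 fits lacking a library. CAV2 was at 47.4 ± 16.0 and 34.7 ± 2.63 CPM (adjusted p 0.373). CAV3 held 1.50%, 1.32% and 1.34% of caveolin counts in RPMI plus B27 and 0.611%, 0.830% and 0.136% in DMEM plus fatty acids, again without overlap (exact two-sided permutation p 0.1, adjusted 0.2). CAV1 is made in quantity by fibroblasts and smooth muscle, whose marker sums are given above, and its part in the share was not tested.

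**Figure D3:**
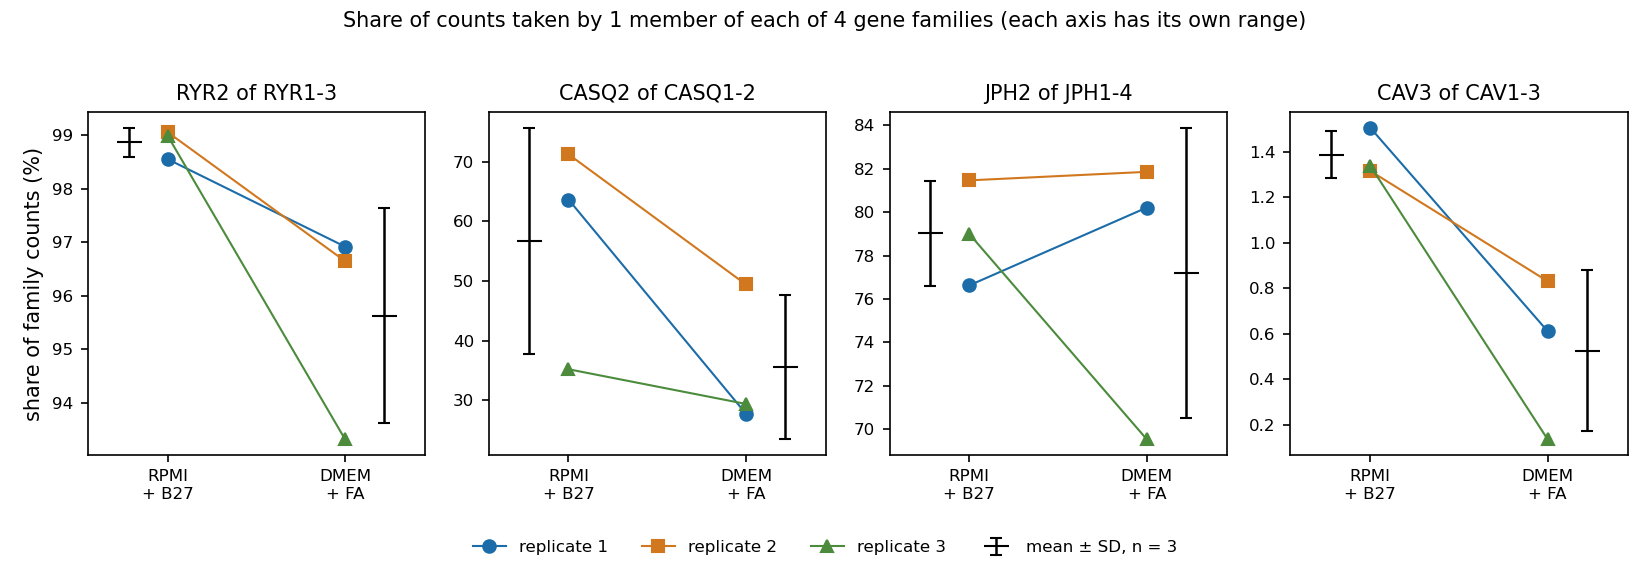
Percent of raw counts held by RYR2, CASQ2, JPH2 and CAV3 within their gene families (vertical axes, each with its own range and not all from 0) in each library. Lines join libraries with the same replicate number and black bars are mean ± SD of 3 libraries. The media separate for RYR2 (98.6% to 99.1% against 93.3% to 96.9%) and CAV3, and overlap for CASQ2 and JPH2.

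Levels of different genes were compared per kilobase of the longest protein-coding transcript in GENCODE 29, which need not be the one these cells made. On this scale the order in RPMI plus B27 was JPH2 (81.4 CPM per kilobase), ASPH (59.0), TRDN (41.5), RYR2 (19.0), CASQ2 (16.5), JPH1 (14.9), CASQ1 (13.9), BIN1 (7.66), CAV3 (0.850) and RYR3 (0.0976). The first 3 were each above the next gene in every library of the medium. From RYR2 through BIN1 neighbours overlapped between libraries. In DMEM plus fatty acids JPH2 (54.7), ASPH (43.0), TRDN (33.8) and RYR2 (19.1) still led on average. In its replicate 3, however, JPH2 (34.6) was below both ASPH (42.9) and TRDN (36.4). CASQ2 (3.79) stood eighth in order of the means, below BIN1 (9.67), JPH1 (9.36) and CASQ1 (9.02). In replicate 3 of RPMI plus B27 CASQ2 (3.64) was also below BIN1 (5.37), JPH1 (14.9) and CASQ1 (9.43). With all annotated exons merged in place of the longest transcript, TRDN moved above ASPH in both media and RYR2 also in DMEM plus fatty acids.

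The genes were also set against cardiomyocyte content, as raw counts per 10000 counts of the 12 cardiomyocyte markers, a scale on which those markers' own differences enter. JPH2 was at 84.2, 86.4 and 93.2 in RPMI plus B27 and 78.1, 70.0 and 59.7 in DMEM plus fatty acids and did not overlap. CAV3 also did not overlap, at 0.394, 0.228 and 0.183 against 0.0637, 0.0925 and 0.0214. For ASPH and JPH1 the media overlapped on this scale. Replicate 3 of DMEM plus fatty acids, the library with the lowest marker sum, stood at 98.1 and 14.6, within or above the RPMI plus B27 ranges of 81.5 to 86.4 and 11.6 to 16.4. The mean of TRDN turned direction on this scale, from 44.5 (RPMI plus B27) to 45.5 (DMEM plus fatty acids), and the media overlapped. Its values were 43.8, 49.3 and 40.3 in RPMI plus B27 and 39.1, 34.8 and 62.7 in DMEM plus fatty acids. Replicates 1 and 2 were still lower in DMEM plus fatty acids, and only replicate 3 was higher. RYR3 was higher without overlap, at 0.244 to 0.409 against 0.567 to 0.988. The media overlapped for RYR2 (means of 70.9 and 86.6), CASQ1 (5.82 and 4.59), CASQ2 (9.63 and 2.60) and BIN1 (4.62 and 7.32). The share of all genes without overlap was not computed on this scale, so the separated genes cannot be set against it.

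Around the release unit, 60 further genes of calcium cycling were listed by role, of which 59 were tested. Their median log2 fold change was -0.01, with 29 higher and 30 lower, and 3 passed (2 higher, 1 lower), where 1.36% of all genes did. With the block 8 passed (3 higher, 5 lower), where 4.78% of all genes did. Of the 16 regulators of the release channel, such as the FKBP and calmodulin genes, none passed in either fit, and 1 had an unadjusted p under 0.05 (17.7% of all genes). With 1.36% and 4.78% of all genes called in these fits, a count of 0 among 16 sets the regulators apart from other genes in neither. By DESeq2, 8 of the 59 passed, among them the regulator SELENON, where 7.53% of all genes did.

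Among 12 reuptake and extrusion genes, STRIT1, which encodes a micropeptide that activates the calcium pump of the reticulum, rose from 0.0754, 0.425 and 0.0746 CPM to 5.94, 2.51 and 7.03 CPM (4.76 ± 0.72 on the log2 scale, adjusted p 0.0402), on no more than 10 counts a library in RPMI plus B27. SLN, sarcolipin, an inhibitor of that pump, went from 8.10, 4.34 and 1.01 to 0.388, 0.0669 and 0.296 CPM (adjusted p 0.0751, and 0.0403 with the block). Neither overlapped between media. Each passed the filter on low counts only through the medium in which it was higher.

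Of the 10 genes of the trigger channel, CACNA2D2, an auxiliary subunit of calcium channels, rose from 8.32 ± 1.39 to 33.1 ± 7.57 CPM (SD, n = 3 each), with a log2 fold change of 1.99 ± 0.22 (adjusted p 0.0242). CACNB1, another auxiliary subunit, and RRAD, a small GTPase that restrains the L-type channel, passed with the block only (adjusted p 0.0286 and 0.00810). For both, replicate 3 was lowest in each medium, as for CASQ1 and CASQ2. RRAD was at 393, 224 and 50.7 CPM in RPMI plus B27 and 135, 93.8 and 20.9 CPM in DMEM plus fatty acids. CACNB1 was at 42.9, 24.7 and 12.9 CPM in RPMI plus B27 and 21.2, 14.7 and 7.56 CPM in DMEM plus fatty acids.

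Of 14 other T-tubule and dyad genes, 13 were tested. CAVIN4, a muscle protein of caveolae that works with CAV3, fell without overlap, from between 30.1 and 41.8 CPM to 11.6 CPM or less. Its log2 fold change was -1.83 ± 0.20 with an adjusted p of 0.0242. CAVIN1, the cavin needed for caveolae in most tissues, was at 612 ± 67.2 and 297 ± 77.9 CPM (log2 fold change -1.04 ± 0.22, adjusted p 0.0718, and 0.0401 with the block). Of 8 inositol trisphosphate receptor and store-operated entry genes, ITPR1, the receptor gene for inositol trisphosphate, passed with the block only (0.55 ± 0.16 without it and 0.56 ± 0.11 with it, adjusted p 0.147 and 0.0493). Of the 3 genes called without the block, CAVIN4 kept its call in 2, CACNA2D2 in 1 and STRIT1 in none of 6 unblocked fits lacking a library. All 3 kept the call in each of the 6 blocked fits lacking a library. Here too, either library of a replicate gave nearly the same blocked fit, with 1 residual degree of freedom each. In the unblocked fits the log2 fold changes ran from -1.95 to -1.69, from 1.80 to 2.13 and from 4.38 to 6.02, with adjusted p of at most 0.0947, 0.0848 and 0.0959.

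**Figure D4:**
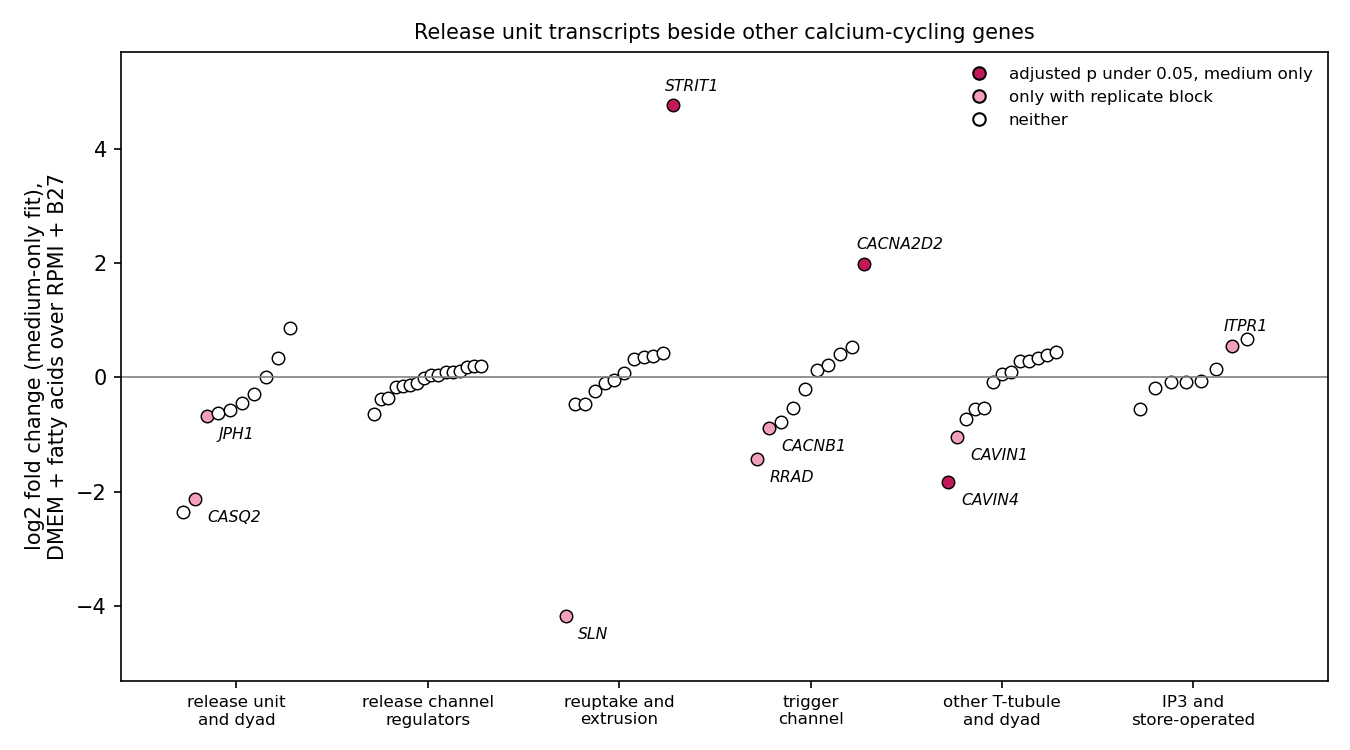
Log2 fold change (vertical axis, medium-only fit, DMEM plus fatty acids relative to RPMI plus B27) of each tested gene of the release unit and dyad and of 5 groups of other calcium-cycling genes, ordered by value within a group. Filled points passed an adjusted p of 0.05 without the block (dark) or only with it (light). Most points lie near 0, and the release channel regulators hold none that passed, where 1.36% and 4.78% of all genes passed in the respective fits.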

How the data were processed

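The authors deposited raw read counts per gene symbol, 1 file per library, without normalization or pooling. The submitters' processing notes name STAR, HTSeq and the build hg38. The gene annotation, the strand setting and versions were not given in the sources used here. Per the labels' protocols, RNA was column-purified with DNase digestion, and the library kit was for stranded mRNA. Reads without a gene, shared between genes or placed more than once formed separate rows and were left out, which kept 84.4% to 87.2% of each file's counts. In GENCODE 29, exons of ASPH and RYR3 overlap those of opposite-strand genes, and the span of JPH1 overlaps such a gene. These counts can thus depend on the strand setting. The list need not be complete: TRDN-AS1, a gene named for its position antisense to triadin, was also counted.

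Counts were tested in R 4.3.3 with edgeR 4.0.16 (filterByExpr, minimum count 10 and total 15, TMM, quasi-likelihood test, Benjamini-Hochberg over 16107 genes, threshold 0.05) on medium over all 6 libraries. SEs are those implied by F. Alternatives were other scalings, filters, DESeq2 1.42.0, the replicate block and leaving out each library. The test was checked on simulated counts with 200 changed genes. Pairing was checked on deviations from the mean of each medium across genes: same-numbered libraries correlated at 0.31, 0.43 and 0.37, others at -0.24 to -0.14. Deviations cancel out within a medium, so positive values for same-numbered libraries push the others down, and the negative values are not separate evidence. On the basis of the positive values same-numbered libraries were taken as pairs. The blocked fits thus use a pairing drawn from these same data. What a number stands for is not in the labels. Nothing in the labels says how the biological replicates were separated, so p values measure only the spread between these samples, which may be technical. Shares were compared by exact permutation tests, with Wilson intervals that cover counting error only. No 2 libraries agreed within sampling noise (smallest chi-square per degree of freedom 31.6).

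The 10 genes and the lists were chosen with earlier results of these data known. Named genes are these 10, their family members RYR1, JPH3, JPH4, CAV1 and CAV2, the listed calcium genes called in either fit (at most 8, plus the 2 smallest p in each direction) and the 3 genes most like RYR2 and CASQ2. SELENON, HRC, TRDN-AS1 and KDR were named after their values were seen. Blocked fits without single libraries were added after seeing the data.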

Additional observations from a re-analysis of the deposited data

How the results depend on the processing

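None of the 10 genes was called under either other scaling, either other filter or in any of the 6 unblocked fits without 1 library (0 to 0), while 2 were called by DESeq2, 2 with the replicate block and 2 to 5 in the blocked fits without 1 library. The 5 came without replicate 1 of RPMI plus B27, with 3 without replicate 1 of DMEM plus fatty acids, as given with the results. Of the other calcium-cycling genes, 3 of 59 were called, and 5 of 60 without the filter, 8 by DESeq2, 8 with the replicate block and 0 to 3 without 1 library. The blocked fits without 1 library called 16 and 15 without replicate 1 of RPMI plus B27 and of DMEM plus fatty acids, where 12% and 9.74% of all genes were called. The other blocked fits without 1 library called 5 to 8, against 2.5% to 6.2% of all genes. Over all genes, 219 of 16107 were called, 539 of 26979 without the filter and 119 of 14501 with at least 10 counts in every library. DESeq2 called 1212 of 16103 and the blocked fit 770 of 16107. Fits without 1 library called from 3 of 16453 to 131 of 16579, and the blocked ones from 413 of 16522 to 1970 of 16425. Scaling by total counts moved the all-gene median from 0.01 to 0.12 (log2) and lower calls from 172 of 219 to 128 of 202.

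RYR2 turned to -0.015 with the replicate block and, without 1 library, ran from -0.24 to 0.14. In blocked fits it was -0.14 and -0.016 without replicates 1 and 2 of RPMI plus B27, -0.14 and -0.011 without those of DMEM plus fatty acids, and 0.11 without either replicate 3. The JPH2 share difference of -1.83 percentage points ran from -4.15 to 2.01 without 1 library, the last without replicate 3 of DMEM plus fatty acids. The fitted fold changes of the other 9 genes and the other 3 shares kept their direction in these alternatives. Per cardiomyocyte marker count the mean of TRDN turned, with only replicate 3 higher in DMEM plus fatty acids. CAV3 was not tested with at least 10 counts in every library. Differences within replicate pairs have the same means by arithmetic, which is no check of the shares. The sign-flip test of 3 pairs cannot go under 0.25 (exact p 0.25 for RYR2, CASQ2 and CAV3 shares, 1.0 for JPH2). The block changed no other call among the 10 genes. Depth limits CAV3 and RYR3 most: a count of 0 allows 0.0967 to 0.129 CPM.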

Other observations

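HRC, a calcium-binding protein of the reticulum lumen that also binds triadin, shared the low replicate 3 of CASQ2 but not its difference between media. It was at 384, 391 and 211 CPM in RPMI plus B27 and 383, 393 and 241 CPM in DMEM plus fatty acids (log2 fold change 0.05 ± 0.28, adjusted p 0.950). TRDN-AS1, a non-coding gene named for its position antisense to triadin, varied far more than triadin itself between replicates, with 8.14, 1.40 and 2.65 CPM in RPMI plus B27 and 6.03, 0.635 and 1.99 CPM in DMEM plus fatty acids. Its order, replicate 1 highest and replicate 2 lowest, was the same in both media, and it passed neither fit (adjusted p 0.799, and 0.225 with the block).

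Likeness was measured as the root mean square difference of mean-centred log2 CPM over the 6 libraries, among the 10028 genes that averaged 10 CPM or more. The genes most like RYR2 were DNAJC1 (0.0385), KDM4C (0.0587) and CITED2 (0.0604), all close to RYR2 in every library. The genes nearest to CASQ2 were EMILIN1 (0.477), PDLIM3 (0.501) and NR4A1 (0.537). This measure tends to grow with a gene's own range, which was 13.5-fold for CASQ2 and 1.60-fold for RYR2. The distances of the 2 genes' neighbours are therefore not comparable as closeness.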
